A study of Arabidopsis thaliana with 59 samples.

Results

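The loci described here are the 150 Arabidopsis loci whose level on arrays numbered replicate 3 lay furthest above that on arrays numbered replicate 1. They were chosen by these values alone: replicate 3 minus replicate 1 was taken in every combination of accession and watering, 20 in all, and averaged. The 150 loci were taken from 9161 loci with a mean of at least 6 log2 units, out of 20728 loci measured in all, after PRR5, PRR3, TOC1, GI and AT3G46640 had been left out by name. AT3G46640 was not analysed here. All values are on a log2 scale, so that a difference of 1 unit is a doubling of signal.

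The study compared rosette leaves of dry and wet plants in 10 accessions: Col, Ler, SQ-8, Ws-2, NFA-10, Bur-0, KNOX-18, Ts-1, HR-5 and CIBC-17. Dry pots lost water slowly until about 50% of the pot's water remained on day 5, whereas wet pots stayed near 90%. All plants stood singly in pots of about 150 ml of ceramic medium, under light of 330 µmol m-2 s-1 for 10 h a day, 23 C by day, 18 C by night and 60% humidity. Each group had 3 biological replicates, except that KNOX-18 dry had replicates 3 and 1 only, which gave 29 dry and 30 wet arrays. Neither the hour of harvest, nor the plants pooled per array, nor what the replicate numbers stand for is given in the sources used here.

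By day a leaf fixes carbon, fills its chloroplasts with starch and keeps soluble sugars high, and by night it degrades the starch. Many leaf genes follow this cycle through the circadian clock or through sugar sensing by the SnRK1 kinase. Genes such as ASN1 and SEN1, the dark-induced or DIN class, are repressed by sugars and switched on in darkness or carbon starvation. The clock itself is a loop in which LHY and CCA1 peak near dawn and repress genes that peak later, such as TOC1 and GI, and its outputs include RNA-binding proteins and cold-response genes.

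Array medians lay between 5.50 and 5.62 log2 units, and 0 pairs of arrays were identical. Markers of leaf mesophyll were high (3 genes, mean 11.99 to 12.93 on replicate 3 arrays and 10.37 to 13.19 on replicate 1 arrays). Root markers (4.40 to 4.90 and 4.40 to 4.56) and floral markers (3.74 to 4.0 and 3.73 to 4.02) stayed near the bottom of the scale, and guard cell markers lay between 4.21 and 4.89. Trichome and epidermis markers (5 genes) lay between 5.66 and 6.43 on replicate 3 arrays and between 5.83 and 7.0 on replicate 1 arrays. By limma's test 3 of the 5 were lower on replicate 3 arrays (17.2% of all loci). In dry plants 2 of the 5 were lower (13.8% of all loci), ATML1 (-0.46) and KCS6 (-0.93). PDF1 (0.29), GL2 (0.23) and GL1 (-0.01) were not called for drying. Vascular markers (5 genes) lay between 6.55 and 7.83 and between 6.48 and 8.08, with 1 of the 5 higher on replicate 3 arrays (13.2% of all loci). In dry plants 2 were higher (15.5% of all loci) and 1 lower (13.8%). With so few genes, nothing is read from these counts. The part of these cell types in the results was not tested. The 4 arrays below were least like the others, with a mean correlation over all loci of 0.936 to 0.952: Ler wet replicate 3, Bur-0 wet replicate 1, NFA-10 wet replicate 1 and Col wet replicate 3. Col wet replicate 3 also carries the stock number of Ws-2 in its labels, but its deviations from the mean array correlated at 0.571 with the other Col arrays and at 0.007 with those of Ws-2.

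The average difference that chose the loci ran from 4.93 for SEN1 to 1.30 for AT4G37180, with a median of 1.67, against a median of -0.0047 over all loci. It exceeded 2 log2 units for 43 of the 150 loci and 1.5 units for 100. Replicate 3 was above replicate 1 in all 20 groups for 85 of the 150 loci, where 1.26% of all loci and 2.29% of those that could have been chosen did so, and in at least 18 groups for 142. The lowest count was 15 groups, for AGP21. For 18 loci every replicate 3 array stood above every replicate 1 array, where 0.111% of all loci did so. These values describe the choice of loci and nothing is read from them. Just inside the limit lay AGP21, EXP3, AT4G30660, PLA2A and AT4G37180 at 1.31 to 1.30, and just outside lay AT1G80440 (1.29), ATCTH (1.28), PIF4 (1.28), AT3G01310 (1.28) and AT3G59940 (1.28). Of the loci left out by name, GI had an average difference of 1.84, PRR5 of 1.2, TOC1 of 0.83 and PRR3 of 0.78.

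The mean of the 150 loci on an array differed between replicates 3 and 1 by the choice of loci, and is given as a description. On replicate 3 arrays it was 8.91 at the lowest, 9.29 at the median and 9.51 at the highest in dry plants, and 8.59, 8.95 and 9.72 in wet plants. On replicate 2 arrays the same values were 8.07, 8.49 and 9.10 in dry plants and 7.81, 8.22 and 8.88 in wet plants. On replicate 1 arrays they were 7.01, 7.46 and 8.28 in dry plants and 6.41, 6.96 and 7.37 in wet plants. Replicate 3 and replicate 2 arrays overlapped, and so did replicate 2 and replicate 1 arrays. The highest replicate 1 array, SQ-8 dry (8.28), stood above the lowest replicate 2 array, Bur-0 wet (7.81). Averaged over both waterings, the replicate 3 minus replicate 1 difference of this mean was highest in Ler (2.40) and lowest in HR-5 (1.52).

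**Figure D1:**
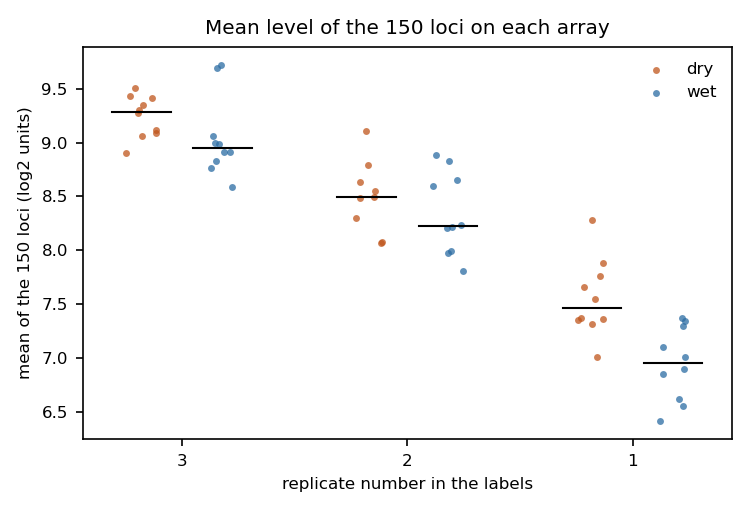
Mean level of the 150 loci on each of the 59 arrays (log2 units), by replicate number, with dry plants on the left and wet plants on the right of each pair. Points are arrays and black bars medians. The replicate 2 medians lie between the others, and the gap between dry and wet medians is widest on replicate 1 arrays (7.46 and 6.96).

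Of the 150 loci 13 were grouped as sugar-repressed or dark-induced, among them SEN1, which had the highest average of all. SEN1, a senescence-associated gene induced in darkness, had a level of 9.98 at the lowest, 12.19 at the median and 13.70 at the highest on replicate 3 arrays, 7.69, 10.70 and 13.23 on replicate 2 arrays, and 4.42, 6.58 and 11.80 on replicate 1 arrays. The ranges overlapped, yet the difference was positive in all 20 groups, from 0.77 in SQ-8 dry to 8.40 in Ler wet. In whole leaves, fewer cells of a type and less transcript per cell cannot be told apart. Its average of 4.93 (SD 1.96 over 20 groups) corresponds to 30.4-fold. AT2G33830, a dormancy and auxin associated gene, had 9.67, 11.26 and 12.29 on replicate 3 arrays, 7.64, 10.00 and 10.70 on replicate 2 arrays, and 4.1, 7.09 and 8.80 on replicate 1 arrays. Here replicates 3 and 1 did not overlap, and the average difference of 4.64 (SD 0.94) corresponds to 24.9-fold.

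ASN1, the glutamine-dependent asparagine synthetase that stores nitrogen when carbon is short, had 5.88, 9.65 and 12.65 on replicate 3 arrays, 4.50, 6.84 and 11.36 on replicate 2 arrays, and 4.09, 4.74 and 10.37 on replicate 1 arrays. Most replicate 1 arrays were thus near the bottom of the scale, and SQ-8 dry showed the smallest difference (1.26) and Ler wet the largest (8.31). AT3G15450 had an average difference of 4.17 (SD 1.31), which ranged from 0.43 in SQ-8 dry to 6.28 in CIBC-17 wet. Others of this class were DYL1, a dormancy-associated gene (3.29), DIN10, a raffinose synthase family gene (3.27), AT4G27450 (2.50), the bZIP transcription factor bZIP1 (2.01) and DIN4, a subunit of branched-chain keto acid dehydrogenase (1.94). TPS11, a trehalose-phosphate synthase family protein, had 1.70, MGL, a methionine gamma-lyase, 1.63, the SnRK1 subunit AKINBETA1 1.46, and MCCA, a subunit of methylcrotonyl-CoA carboxylase, 1.36. The locus AT5G49448 carries the same values as bZIP1 on every array, so the 150 loci hold 149 separate measurements.

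**Figure D2:**
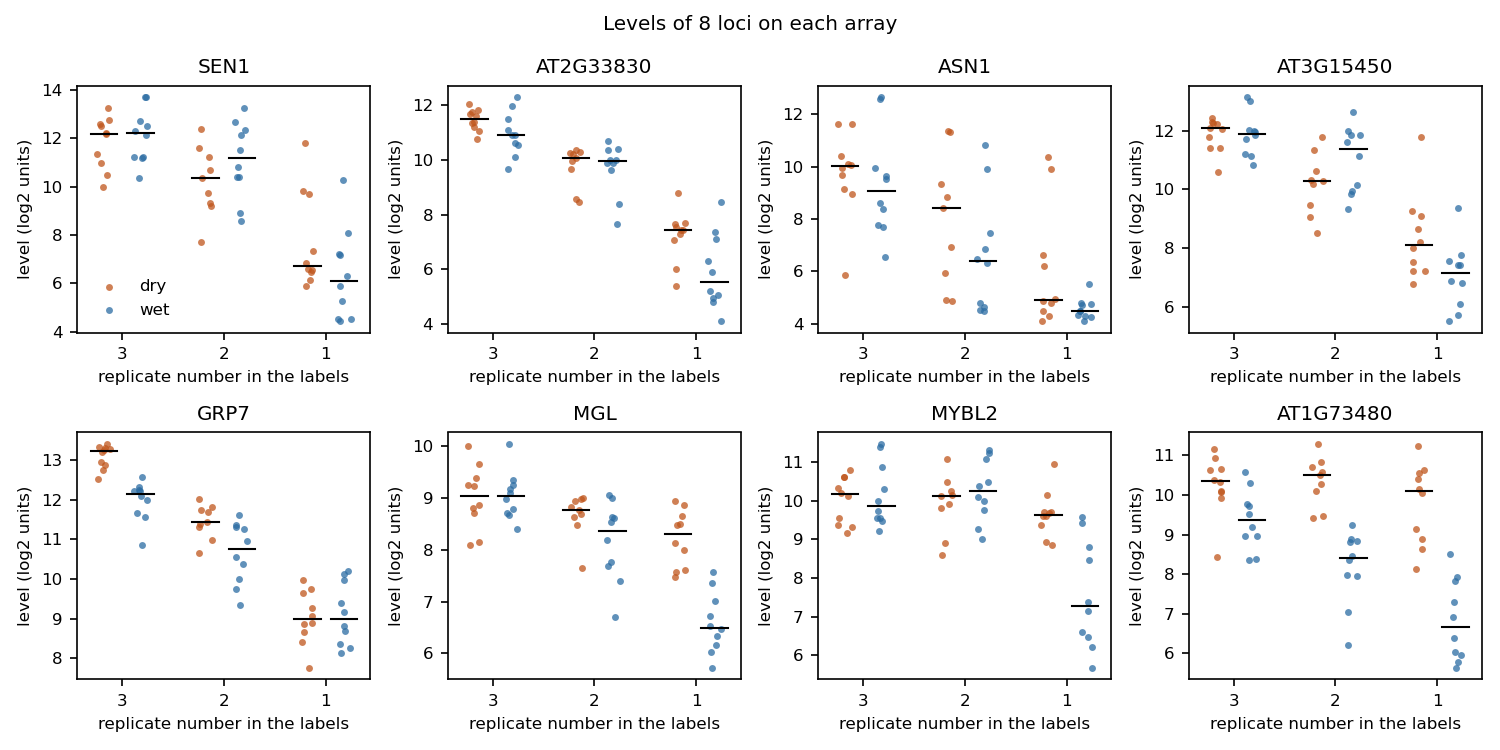
Levels of 8 loci on each array (log2 units) by replicate number, dry plants left and wet plants right, with black bars at the medians. SEN1, AT2G33830, ASN1, AT3G15450 and GRP7 are among the 20 loci with the highest average difference. In MGL, MYBL2 and AT1G73480 the wet plants on replicate 1 arrays stand lowest, with medians of 6.5, 7.26 and 6.66.

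The other loci among the 20 with the highest averages had few names. MEE14, named for an embryo arrest mutant, averaged 3.82, AT1G56300 3.76, AT4G32340 3.33, AT5G19120 3.08 and AT3G62550 2.71. WCRKC1, a chloroplast thioredoxin, averaged 3.39, BGAL4, a beta-galactosidase, 2.86, and ST2A, a sulfotransferase that acts on hydroxyjasmonate, 2.64. AT4G25260 (2.74), AT3G15630 (2.70), AT2G20670 (2.64), AT1G49500 (2.64) and AT5G22920 (2.61) completed these 20 with GRP7.

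Outputs of the clock and cold-response genes formed another group of 13 loci. GRP7, an evening-phased RNA-binding protein that represses its own transcript, had 10.85, 12.56 and 13.42 on replicate 3 arrays, 9.33, 11.30 and 12.01 on replicate 2 arrays, and 7.75, 8.98 and 10.20 on replicate 1 arrays, without overlap between replicates 3 and 1. Its average difference of 3.47 corresponds to 11.1-fold. Its close relative CCR1, also called GRP8, had 1.34, CCL, a transcript known for instability and clock control, 2.04, the cold-response regulators CBF1 and DREB1A 2.11 and 1.63, and the cold-regulated membrane proteins COR413IM1 and COR413-PM1 1.51 and 1.46.

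Clock genes outside the 150 loci moved both ways between the same arrays. Of the 7 evening-phased genes measured outside the 150 loci under a matching symbol, 5 had a positive average difference, TCP11 (1.01), ELF3 (0.84), BT2 (0.69), CAT3 (0.46) and ELF4 (0.21). The other 2 had a negative one, COR27 (-0.0066, positive in 11 of 20 groups) and JMJD5 (-0.20). COR28 (0.31), whose symbol did not match the gene table, was not counted. Of 15 morning-phased genes 12 were negative, with LHY at -3.70, CCA1 at -3.40 and COL2 at -2.59, both LHY and CCA1 in all 20 groups. The genes LNK3 (-1.67), RVE1 (-1.57), LNK2 (-1.38), LNK1 (-0.97), COL1 (-0.92), CAT2 (-0.91), CDF1 (-0.89), LNK4 (-0.78) and RVE8 (-0.77) were also lower on replicate 3 arrays, while PRR7 (0.95), RVE4 (0.09) and RVE2 (0.03) were not. ELF4, BT2, COR27, RVE8 and RVE2 had means of 3.94 to 4.40, near the bottom of the scale, which limits their differences. Across all loci 13.2% were higher and 17.2% lower on replicate 3 arrays by limma's moderated test. These genes share the contrast that chose the loci, and the part of the clock in the difference was not tested.

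Enzymes of starch breakdown and sugar transport gave 11 loci with average differences of 1.32 to 2.30. They included the plastid amylase AMY3 (1.90), the disproportionating enzyme DPE1 (1.71) and the plastid phosphorylase PHS1 (1.41), and the hexose carriers STP1 (2.22) and MSS1 (1.58). Only these 3 of 18 starch genes measured were among the 150 loci, and the list as a whole had a median of -0.03, with 8 genes positive and 10 negative. In the list of sugar-repressed and dark-induced genes 12 of 12 were positive, with a median of 1.29. As 6 of them are among the 150 loci by the choice, and the list was drawn up with earlier results known, these counts are a description only. The 10 cytosolic ribosomal protein genes measured under a matching symbol had a median of -0.02.

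Cell wall proteins gave 16 loci. They were the beta-galactosidases BGAL4 and BGAL1 (2.05), the xylosidases BXL1 (2.18), BXL2 (1.38) and XYL1 (1.93), the xyloglucan transglucosylases XTH8 (2.19) and XTH4 (1.75), the expansins EXLA1 (1.89), EXPA11 (1.86) and EXP3 (1.31), the arabinogalactan proteins FLA9 (1.47) and AGP21 (1.31), and AT4G25260, AT5G62360, AT5G48900 and AT4G23820. Growth regulators and light signalling gave 12 more, such as the auxin-response repressor IAA29 (1.95), the gibberellin-regulated GASA4 (1.85) and GASA6 (1.66), the growth-promoting HBI1 (1.85), and PAR1, a repressor of shade responses (2.11). In the list of cell wall loosening and growth genes 1 of 10 was among the 150 loci, XTH4, and the list had a median of 0.53, with 8 genes positive and 2 negative. The regulator PIF4, also on that list, lay just below the limit. Smaller groups were 8 loci of lipids and wax, 7 chloroplast proteins and 12 other regulators, while 58 loci were not grouped. The groups were formed once the names were known, and no test was made of them.

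Replicate 2 arrays took no part in the ranking, but they counted in the mean over all arrays that had to reach 6 log2 units. A high replicate 2 value thus helped a locus to be eligible. In the 19 groups that have all numbers, the replicate 2 mean lay between those of replicates 3 and 1 for 147 of the 150 loci, at a median of 63.2% of the way from replicate 1 to replicate 3 (quartiles 51.0% and 72.9%). Both ends of this span chose the loci, and the replicate 2 mean also lay between them for 115 of the 121 other loci that could have been chosen and had an average over 1 (95.0%), so nothing is read from that count. The departure of replicate 2 from the midpoint passed an adjusted p of 0.05 in limma's moderated test for 12 loci (8% of the 150, against 0.714% of all loci), 11 above the midpoint (0.439% of all loci) and 1 below it (0.275%). The shares of all loci, here and in the tests below, include dim loci that could not have been chosen. IAA29 had a level of 6.36, 8.26 and 9.26 on replicate 3 arrays, 6.31, 8.20 and 9.73 on replicate 2 arrays, and 4.98, 6.28 and 7.58 on replicate 1 arrays, so the medians of replicates 3 and 2 were close. It exceeded the midpoint by 1.11 ± 0.19 (SE, adjusted p = 0.00518).

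Such an excess was also found for WES1, an enzyme that conjugates auxin to amino acids (0.61 ± 0.11, adjusted p = 0.00518), COR413IM1 (0.55 ± 0.11, adjusted p = 0.0143) and AT2G33830 (0.85, adjusted p = 0.0156). These 4 calls held when any 1 array was left out. The calls of SEN1 (1.28, adjusted p = 0.0491), AT3G62550 (0.95, 0.0469), KCS12 (0.78, 0.0447), CCL (0.76, 0.0423), AT1G02300 (0.59, 0.0299), PATL1 (0.53, 0.0253) and LCR69, a small cysteine-rich protein gene (-1.0, 0.0464), did not. The count was 5 without KNOX-18, NFA-10 or SQ-8 wet replicate 2, and 6 without Ts-1, CIBC-17 or Col wet replicate 2. It was 7 without any 1 of 16 others: Ws-2, Bur-0, CIBC-17, HR-5 or SQ-8 wet replicate 1, Ws-2 or HR-5 wet replicate 2, Ws-2, Bur-0 or Col dry replicate 2, KNOX-18 wet replicate 3, and Bur-0, CIBC-17, NFA-10, SQ-8 or Col dry replicate 3. It was 25 without SQ-8 dry replicate 1, 24 without SQ-8 dry replicate 2 and 23 without Ler wet replicate 3.

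The replicate difference depended on watering at 26 of the 150 loci (17.3%, against 3.9% of all loci, limma on the 20 differences). Only 9161 of the 20728 loci could have been chosen, so the share of all loci includes dim ones unlike the 150. It was smaller in dry plants than in wet plants at 21 of them (2.01% of all loci) and larger at 5 (1.89%). Since bZIP1 and AT5G49448 share their values, 25 separate measurements are involved. Over all 150 loci the median difference was 1.54 in dry plants and 1.91 in wet plants, and 108 loci had the smaller mean in dry plants. Of the loci that could have been chosen 49.6% did so. That share mixes loci higher and lower on replicate 3 arrays, so the 108 are not read against it. The loci just outside the limit also had smaller means in dry than in wet plants. These were AT1G80440 (0.58 and 2.0), ATCTH (0.52 and 2.05), PIF4 (0.686 and 1.875), AT3G01310 (1.084 and 1.475) and AT3G59940 (0.63 and 1.92). The mean of the 150 loci differed between replicates 3 and 1 by 1.69 ± 0.33 in dry plants and 2.1 ± 0.43 in wet plants (SD, n = 10 accessions each), with the smaller value in dry plants in 8 of 10 accessions.

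The split of these calls rested in part on the arrays that stand apart. Without the 4 arrays least like the others, 20 loci were called, 12 with a smaller and 8 with a larger difference in dry plants. With single arrays left out, 20 to 33 loci were called. The 6 loci with the smallest p kept their call in each of these settings. The largest difference between waterings among the 26 loci, that of AT4G27450, was 1.02 in dry plants and 3.97 in wet plants (dry minus wet -2.95 ± 0.51, SE, adjusted p = 0.00349).

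MGL, which breaks down methionine, showed the smallest p. Its level on replicate 3 arrays was 8.09, 9.05 and 10.00 in dry plants and 8.40, 9.04 and 10.05 in wet plants, and on replicate 1 arrays 7.48, 8.31 and 8.95 in dry plants and 5.72, 6.5 and 7.57 in wet plants. Dry and wet plants thus matched on replicate 3 arrays, and the ranges barely overlapped on replicate 1 arrays. The replicate difference was 0.79 ± 0.58 in dry plants and 2.46 ± 0.53 in wet plants (SD, n = 10 each), smaller in dry plants in 10 of 10 accessions (dry minus wet -1.67 ± 0.24, SE, adjusted p = 0.00099).

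MYBL2, a repressor of anthocyanin synthesis, behaved alike. On replicate 1 arrays it had 8.86, 9.64 and 10.94 in dry plants and 5.68, 7.26 and 9.58 in wet plants, whereas on replicate 3 arrays the medians were 10.16 and 9.85. Its replicate difference was 0.35 in dry plants and 2.58 in wet plants (-2.23 ± 0.36, adjusted p = 0.00237). The clock-controlled transcript CCL had a median of 12.01 in dry plants and 9.68 in wet plants on replicate 1 arrays, against 12.92 and 12.83 on replicate 3 arrays (-1.91 ± 0.28, adjusted p = 0.0013). The highest value of any locus was 14.06, and a limit of the signal towards the top of the scale was not tested. AT3G10020 (-2.01, adjusted p = 0.00262), AT3G62550 (-2.37, adjusted p = 0.00311) and AT1G73480 (-2.07, adjusted p = 0.00104) had smaller differences in dry plants in 10, 9 and 10 of 10 accessions.

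**Figure D3:**
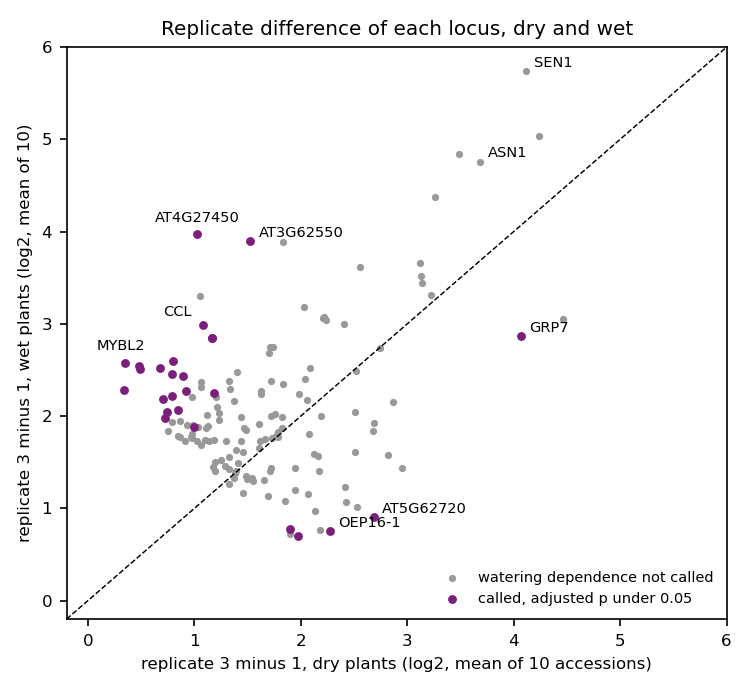
Replicate 3 minus replicate 1 difference of each of the 150 loci in dry plants (horizontal axis) and in wet plants (vertical axis), each the mean of 10 accessions in log2 units. Purple points are the 26 loci whose difference depended on watering. The dashed line marks equal differences, and 108 loci have the smaller mean in dry plants.

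The 5 loci with the larger difference in dry plants were AT5G62720 (1.78, adjusted p = 0.00749), OEP16-1, a pore of the outer chloroplast envelope (1.52, adjusted p = 0.00477), PATL2, a lipid-binding patellin (1.27, adjusted p = 0.0103), and both RNA-binding relatives, GRP7 (1.2, adjusted p = 0.0351) and CCR1 (1.13, adjusted p = 0.025). On replicate 3 arrays GRP7 had 12.53, 13.24 and 13.42 in dry plants and 10.85, 12.16 and 12.59 in wet plants, so the ranges barely overlapped. On replicate 1 arrays it had 7.75, 8.98 and 9.97 in dry plants and 8.12, 8.99 and 10.20 in wet plants. The difference of GRP7 was larger in dry plants in 10 of 10 accessions.

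Among the role groups, the 13 sugar-repressed and dark-induced loci had a median replicate difference of 1.4 in dry plants and 3.32 in wet plants. The difference was smaller in dry plants by the test for 4 of them (AT4G27450, TPS11, bZIP1 and MGL). Of the 16 cell wall loci 0 passed, and of the 11 starch and sugar loci 0 passed, where 3.9% of all loci did so. With so few loci in a group, nothing is read from these counts. No locus of the 150 passed the test of the replicate difference among accessions (0.00482% of all loci). Of the 150 loci 17 had an unadjusted p under 0.05 in it, against 4.89% of all loci. That fit has no term for watering, so the differences between waterings stay in its residual. The smallest p there belonged to DIN10 (adjusted p = 0.505), followed by AT1G12845, AT3G08030, DELTA-TIP, BGAL1 and AT1G11210 (adjusted p = 0.922 each).

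Drying changed 53 of the 150 loci in the fit over all arrays (35.3%, against 29.3% of all loci), with 44 higher in dry plants (15.5% of all loci) and 9 lower (13.8%). This fit has no term for the replicate number, so the differences between numbers by which the loci were chosen stay in its residual, and its share is not read against that of all loci. In the pairs of a single number, drying changed 31 loci on replicate 3 arrays (20.7%, against 3.82% of all loci), 27 higher (1.97%) and 4 lower (1.85%). It changed 62 on replicate 2 arrays (41.3%, against 17.6%), 45 higher (10.3%) and 17 lower (7.36%). It changed 85 on replicate 1 arrays (56.7%, against 19.4%), 75 higher (9.71%) and 10 lower (9.73%). Without the arrays numbered 2 the fit over the remaining arrays called 10 loci. Dry minus wet of the mean over the 150 loci was 0.20 on replicate 3 arrays (7 of 10 accessions positive), 0.20 on replicate 2 arrays (7 of 9) and 0.61 on replicate 1 arrays (10 of 10).

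The 10 loci that rose most with drying included dehydration and cold-response genes. COR15B, a chloroplast protein that protects membranes on freezing and drying, had 5.02, 7.96 and 10.13 in dry plants and 4.87, 6.07 and 8.52 in wet plants. It was higher in dry plants by 1.88 ± 0.33 (SE, adjusted p = 2.63e-05) in 10 of 10 accessions, by 2.23 on replicate 3, 2.43 on replicate 2 and 0.99 on replicate 1 arrays. DREB2A, a transcription factor of the dehydration response, had 6.55, 9.15 and 10.27 in dry plants and 5.51, 7.01 and 9.73 in wet plants, and rose by 1.39 ± 0.25 (adjusted p = 3.58e-05). The ranges of both genes overlapped, since accessions and replicate numbers are mixed in them.

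The largest rise was that of AT1G73480, at 8.14, 10.33 and 11.30 in dry plants and 5.63, 8.36 and 10.59 in wet plants (2.02 ± 0.27, adjusted p = 2.79e-07). It was 0.89 on replicate 3, 2.25 on replicate 2 and 2.96 on replicate 1 arrays. LOL1, a zinc finger regulator of cell death (1.43, adjusted p = 6.97e-06), AT4G37180 (1.43, 3.58e-05) and AT4G31290, a gamma-glutamyl cyclotransferase (1.27, 0.00066), rose as well. So did ESE3, an ethylene-response factor (1.27, 0.000177), AT1G15010 (1.26, 6.73e-05), PORB, a protochlorophyllide reductase (1.25, 0.000268), and NAC019, an abscisic acid-responsive NAC factor (1.19, 0.000781). Within single numbers, AT4G37180, AT4G31290 and AT1G15010 missed the threshold on replicate 3 arrays, ESE3 on replicate 2 arrays and NAC019 on replicate 3 and replicate 2 arrays.

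AZI1, a lipid-transfer-like protein of systemic immunity, fell most. It had 5.86, 7.39 and 11.21 in dry plants and 7.68, 10.36 and 12.61 in wet plants, lower in dry plants in 10 of 10 accessions (-2.51 ± 0.28, adjusted p = 7.79e-09). The fall was alike within the numbers, at -2.33 on replicate 3, -2.93 on replicate 2 and -2.29 on replicate 1 arrays, and its replicate difference was 1.79 in dry plants and 1.83 in wet plants. The other falls were in FLA9 (-1.06, adjusted p = 0.0023), the fatty acid elongase KCS12 (-1.01, 0.00862), AT5G44020 (-0.96, 0.0225), XTH4 (-0.91, 0.023), PATL2 (-0.82, 0.00439), BXL2 (-0.79, 0.0128), AT4G23820 (-0.67, 0.032) and the B-box factor LZF1 (-0.55, 0.0366). Without KNOX-18 dry replicate 1 the calls of AT5G44020 (0.0646), XTH4 (0.0777), AT4G23820 (0.0965) and LZF1 (0.0708) were lost, and those of AT4G23820 and LZF1 were lost without any 1 of 8 and of 19 arrays. In the pairs of a single number, BXL2 passed on none. The threshold was also missed by FLA9, XTH4, PATL2, AT5G44020 and AT4G23820 on replicate 3 arrays, by AT5G44020 on replicate 2 arrays, and by KCS12, AT4G23820 and LZF1 on replicate 1 arrays.

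By role, drying raised 6 of the 13 clock, cold and dehydration loci and lowered 0, and raised 3 of 7 chloroplast loci and lowered 0, where 15.5% of all loci rose and 13.8% fell. With so few loci in a group, nothing is read from these shares. Of 16 cell wall loci it raised 2, the xylosidase XYL1 (0.83, adjusted p = 0.0217) and the expansin EXPA11 (0.77, 0.0405), and lowered 4 (FLA9, XTH4, BXL2 and AT4G23820). On replicate 1 arrays alone 5 cell wall loci were higher in dry plants (9.71% of all loci), among them BXL1 (1.99, adjusted p = 0.00384), and 5 lower (9.73%). Of the 13 sugar-repressed and dark-induced loci, TPS11 (0.85, adjusted p = 0.029) and MGL (0.73, 0.0321) rose. Within the numbers the median dry minus wet of these 13 was -0.03 on replicate 3, 0.05 on replicate 2 and 1.31 on replicate 1 arrays. In that order 0, 2 and 8 of the 13 were higher in dry plants, against 1.97%, 10.3% and 9.71% of all loci. Nothing is read from these counts either. On replicate 2 arrays DIN10 was lower (-1.47, adjusted p = 0.00149).

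The starch enzymes PHS1 (0.91, adjusted p = 0.000817) and DPE1 (0.79, 0.0114) rose in 10 of 10 accessions. PHS1 had 7.16, 9.40 and 10.44 in dry plants and 5.84, 8.17 and 9.66 in wet plants. In the starch list as a whole 11 of 18 genes rose and 0 fell, and in the lists of light-harvesting and of dehydration genes 11 of 13 and 11 of 16 rose and 0 fell in either, against the same 15.5% of all loci higher and 13.8% lower. The mean over the measured light-harvesting genes ranged from 11.33 to 12.04 on replicate 3 arrays and from 10.15 to 12.42 on replicate 1 arrays, and its part in the drying values of the 150 loci was not tested.

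**Figure D4:**
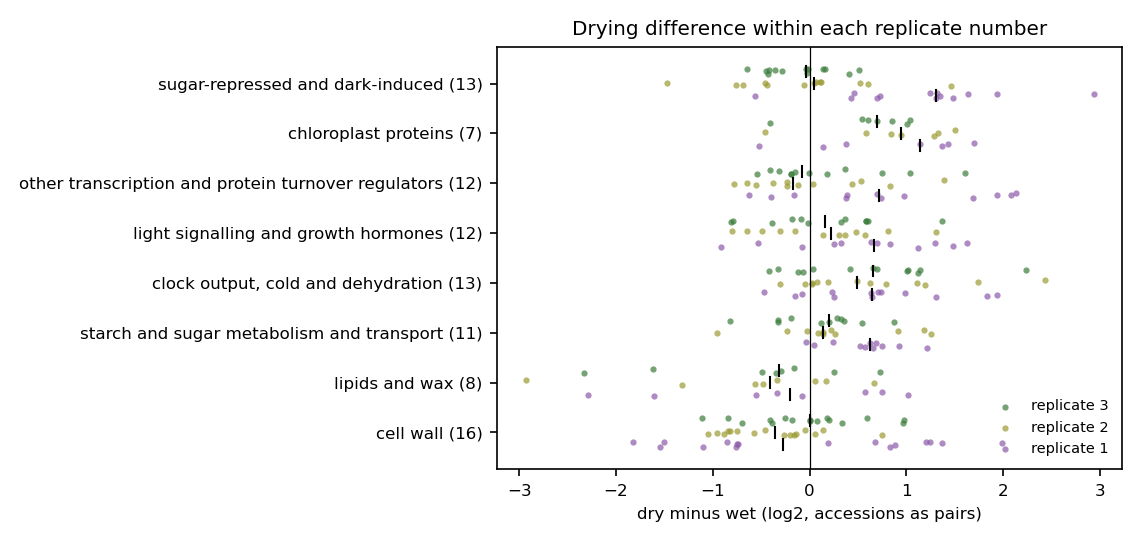
Dry minus wet of each locus (log2 units, accessions as pairs) within arrays of replicate 3, 2 or 1, for 8 role groups with the number of loci in brackets. Points are loci and black bars group medians. The sugar-repressed and dark-induced loci lie around 0 on replicate 3 arrays (median -0.03) and mostly above it on replicate 1 arrays (median 1.31).

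Levels differed among accessions at 19 of the 150 loci (12.7%, against 41.3% of all loci). This fit too has no term for the replicate number, and the share is not read against that of all loci. Without the arrays numbered 2 the count was 1, EBP (adjusted p = 0.0365), and without those numbered 1 it was 52. EBP, an ethylene-response factor, averaged 11.56 in KNOX-18 and 7.63 in Ler (range 3.92, adjusted p = 2.67e-06). Its values in Ler were 8.06, 6.74 and 7.08 in dry plants and 9.0, 8.11 and 6.81 in wet plants for replicates 3, 2 and 1, while the lowest array of KNOX-18 had 10.40. CYTC6A, a cytochrome c6-like protein of the thylakoid lumen, averaged 9.43 in Ws-2 and 6.24 in Bur-0 (range 3.18, adjusted p = 5.95e-06). In Bur-0 it had 7.85, 6.63 and 6.11 in dry plants and 7.50, 4.93 and 4.44 in wet plants, all below the lowest Ws-2 array (8.84).

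AT4G30650, a small hydrophobic protein gene, averaged 7.13 in KNOX-18 and 4.06 in Bur-0 (adjusted p = 0.0061), where it stayed between 3.81 and 4.76 on all 6 arrays. The locus AT1G25230 averaged 10.11 in Ts-1 and 7.41 in HR-5 (adjusted p = 0.00196), and DREB2A 9.15 in Bur-0 and 6.66 in CIBC-17 (adjusted p = 0.0174). These 5 calls held without any single array. The calls of AT1G49500 (range 4.50, Col to HR-5), ST2A (2.85, NFA-10 to Ler), AZI1 (2.79, Bur-0 to Col), AT5G44020 (2.63, Ts-1 to Ler) and AHP4, a histidine phosphotransfer protein (2.49, Ler to Ts-1), did not. Their adjusted p of 0.0354, 0.0344, 0.0135, 0.0282 and 0.034 reached 0.104 without Col wet replicate 3, 0.0636 without Ler dry replicate 1, 0.0525 without Bur-0 dry replicate 3, 0.0552 without Ts-1 dry replicate 3 and 0.0884 without Ler wet replicate 2. On such arrays, less transcript and weaker binding of an accession's sequence to a probe cannot be told apart.

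**Figure D5:**
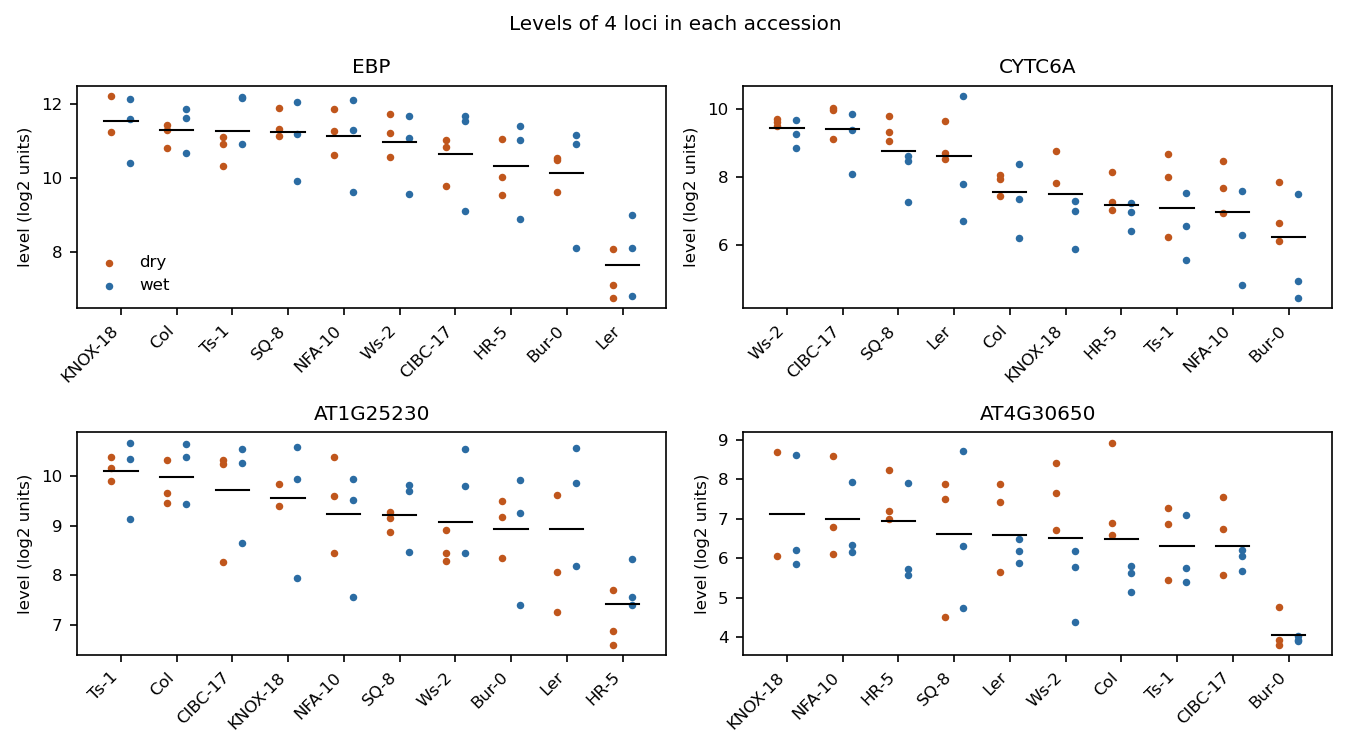
Levels of EBP, CYTC6A, AT1G25230 and AT4G30650 on each array (log2 units) by accession, dry plants left and wet plants right, with black bars at the accession means and accessions ordered by them. Ler stands lowest for EBP (7.63), Bur-0 for CYTC6A (6.24) and AT4G30650 (4.06), and HR-5 for AT1G25230 (7.41).

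The response to drying did not pass the test of a difference among accessions at any of the 150 loci (0 called by limma, against 0.27% of all loci). An unadjusted p under 0.05 was found for 1 locus, against 8.48% of all loci. This fit too has no term for the replicate number, so the differences between numbers stay in its residual. Neither share is read against that of all loci, and an equal response in all accessions is not shown by it. The smallest p belonged to AHP4 (adjusted p = 0.52), followed by PLA2A, ERD7, AT1G49500, UMAMIT33 and SIP2 (adjusted p = 0.834 to 0.964).

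Position and length were not used by the choice. The 150 loci were spread over chromosomes 1 to 5 with 43, 28, 22, 27 and 30 loci, and 0 were on the organelle genomes, which gave 3 and 74 of the loci measured. Among protein-coding neighbours 5 pairs lay side by side and held 9 loci: DREB1A with CBF1, CBF1 with the splicing factor RS40, AT4G30650 with AT4G30660, PORB with AT4G27450, and AT2G15960 with COR413-PM1. Over the 59 arrays, which share watering and replicate number, Pearson's r within these pairs was 0.573 to 0.826, given as a description. The median gene length was 2130 bp, against 2430 bp among the loci that could have been chosen, and the median level 8.09 against 7.62.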

How the data were processed

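The authors deposited 1 log2 value per locus and array for 59 arrays of rosette leaf RNA. Per the submitters' processing notes MAS5 and RMA were used, without roles or versions. Platform, probe assignment and genome build were not given in the sources used here, so no coordinates are printed. Values were used as deposited. Samples were grouped by the accession, watering and replicate number in their titles.

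Each test was fitted on all 20728 loci in R 4.3.3 by limma 3.58.1 (functions lmFit and eBayes), two-sided, with Benjamini-Hochberg adjustment over all loci and a threshold of 0.05. Drying, accession and their interaction came from 1 mean per group (39 residual degrees of freedom). The midpoint test had group and replicate number as terms. The dependence of the replicate difference on watering or accession was fitted to the 20 differences. These contrasts are orthogonal to the average that ranked the loci, but the minimum mean used all arrays. Scripts were tested on simulated data. Arrays carry no read depth, so their number limits precision, and whether same-numbered plants shared a batch is not stated.

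The 150 loci and 14 gene lists were chosen with earlier results of these data known. Named are the 20 highest and 5 lowest loci of the choice and the 5 just outside it, up to 10 called loci per direction for drying and the midpoint, the 10 widest accession ranges, the 6 smallest p of each other test, list members and role groups. Names came from a TAIR10.1 gene table, which held 149 of the 150 loci (97 with a symbol). A planned promoter motif search was not run. Alternatives were other scalings, dim loci left out, single arrays or numbers left out, a replicate block and, chosen after seeing the data, the 4 arrays least like the others left out.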

Additional observations from a re-analysis of the deposited data

Results flagged for a closer look

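The difference between replicates 3 and 1 was not equal in dry and wet plants at 26 of the 150 loci, by the limma test of dry minus wet on the 20 differences. The 6 smallest p belonged to MGL (-1.67), AT1G73480 (-2.07), CCL (-1.91), MYBL2 (-2.23), AT3G10020 (-2.01) and AT3G62550 (-2.37), which all had the smaller difference in dry plants. On replicate 1 arrays their medians were 8.31, 10.10, 12.01, 9.64, 10.11 and 10.45 in dry plants and 6.5, 6.66, 9.68, 7.26, 7.98 and 7.78 in wet plants. On replicate 3 arrays the medians of MGL, CCL and AT3G10020 were within 0.2 log2 units of each other between waterings.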

How the results depend on the processing

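Centring the arrays on their medians, quantile normalization and leaving out dim loci reversed no named result and moved no count of called loci by over 1.5 times. The rule picked 150 of the 150 loci again after centring, 147 after quantile normalization, 131 with the median over groups, 141 with a minimum mean of 5 and 118 with a minimum of 7. With 1 array left out, 46 to 59 loci were called for drying, 15 to 27 for accession, 20 to 33 for watering dependence, 5 to 25 for replicate 2 against the midpoint, and 0 in each fit for both remaining tests. With 1 replicate number left out, drying gave 10 to 58 and accession 1 to 52. Drying called 85 loci on replicate 1 and 31 on replicate 3 arrays alone, and the watering dependence 40 with accession as a block. By the check made, the replicate numbers paired most but not all of the samples. Dry and wet arrays of 1 number and accession correlated above 0.1 in 24 of 29 pairs (-0.2 to 0.564), and 23 of 29 dry arrays correlated best with their own number. With the replicate block, drying called 98 loci (65.3%, against 34.2% of all loci), 77 higher and 21 lower in dry plants, accession 118 (78.7%, against 52.5%) and the interaction 0 (0.468%). Their causes were not tested. Signal near the bottom of the scale limits the loci that read about 4 on replicate 1 arrays.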
